A study of Mus musculus with 188 samples.

Results

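The cells described here are basal keratinocytes of mouse tail epidermis that carried little of the differentiation keratin Krt10 and much of the basal keratin Krt15. They were chosen by 2 measured values. The series holds 94 cells on each of 2 plates, and of these 67 on plate 1 and 59 on plate 2 had Krt10 under 1500 CPM, where CPM (counts per 1000000) is a count divided by the cell's total over genes. The 42 of these with the highest Krt15 CPM are called Krt15-high, the 42 with the lowest Krt15-low, and the 42 between them the middle cells. The remaining 62 cells had Krt10 at 1500 CPM or more.

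All cells came from Lrig1-CreERT2/RosaYFP mice at postnatal day 20. They were sorted as Cd34-/Itga6+/YFP-, a gate meant for basal cells of the interfollicular epidermis, the skin between hair follicles. The reporter allele and the Cre driven by Lrig1, a gene of the upper hair follicle, are shared by all cells, so that the Krt15-high and the Krt15-low cells carry them. Each sample is 1 cell made into a full-length cDNA library by Smart-seq2, and all cells of both plates form 1 group. The labels name no animal, so the cells count as 1 sample: there is no test between the Krt15 groups and no p-value, and every SD is a spread over cells of this sample. Instead, each ratio is given for both plates, as the only repeat that the design offers.

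Keratins are the filament proteins of epithelial cells. Krt5 and Krt14 pair in the basal layer, where stem and progenitor cells divide on the basement membrane, and Krt1 and Krt10 replace them when a cell leaves that layer. Krt15 is a further keratin of basal cells, best known as a marker of hair follicle bulge stem cells, and in the interfollicular epidermis it varies from cell to cell.

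Krt15 ran from 7256 to 30362 CPM in the Krt15-high cells, with a median of 10562, and from 173.99 to 3228 CPM in the Krt15-low cells, with a median of 2180. These values chose the cells and are not a finding. The cells nearest the limits were close together: the lowest Krt15-high cell had 7256 CPM and the highest middle cell 7155, while the lowest middle cell had 3418 and the highest Krt15-low cell 3228. On the Krt10 side, the last cell kept had 1489 CPM and the first left out 1535. The 3 groups are therefore ranges of Krt15 set by the rule. Whether they hold distinct cell types was not tested. Krt15 lies on chromosome 11 from 100131758 to 100135928 on the minus strand of GRCm38.

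**Figure D1:**
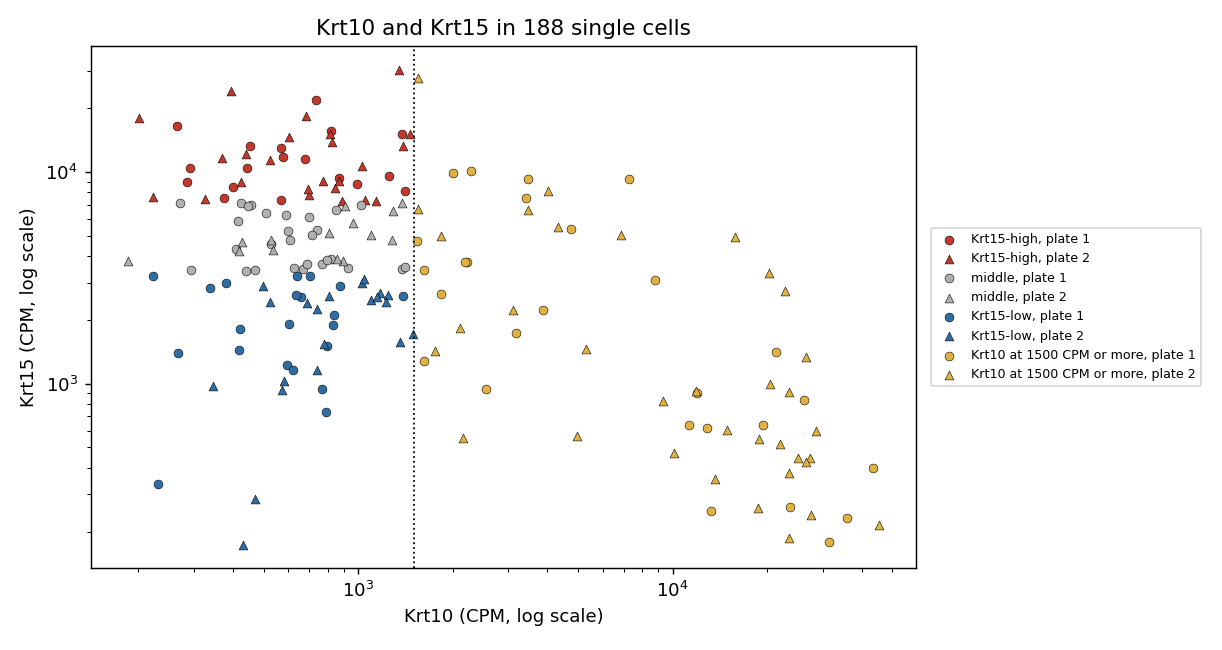
Krt15 against Krt10 in all cells of both plates, both in CPM on log scales; circles are plate 1, triangles plate 2, and the dotted line is the Krt10 limit of 1500 CPM. The 42 Krt15-high cells lie above 7256 CPM and the 42 Krt15-low cells below 3228 CPM, with the middle cells filling the space between them.

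The Krt15-high cells had the basal markers of their label. Krt14 ran from 17924 to 64644 CPM in them, with a median of 34678, and Krt5 from 14519 to 32414 CPM, with a median of 22289. Cd34, a bulge stem cell gene selected against by the gate, had no read in either group. Lrig1 had a mean of 12.4 ± 45.1 CPM (SD, n = 42) in the Krt15-high and 2.89 ± 7.17 CPM in the Krt15-low cells, with 3 and 0 cells at 50 CPM or more, too few to compare. Markers of other cells were low in most cells of both groups. The summed T cell list had a median of 0 CPM in both, and the summed melanocyte list a median of 1.86 CPM in the Krt15-high and 2.66 CPM in the Krt15-low cells. The fibroblast list summed to a mean of 60.1 CPM in the Krt15-high and 33.2 CPM in the Krt15-low cells, with medians of 8.10 and 5.84 CPM. In the Krt15-high cells most of this was Dcn, a matrix proteoglycan, with 817 reads and up to 553 CPM in a cell. In the Krt15-low cells Dcn had 289 reads and Fbln1 of the same list 352. The endothelial gene Pecam1 had means of 6.27 and 0 CPM, with up to 220.4 CPM in a Krt15-high cell, the antigen presentation genes Cd74 and H2-Aa 33 and 25 reads and 0 of either, and the pigment gene Dct 212 and 87 reads, with up to 355 CPM in a Krt15-high cell. Other genes of these lists went the other way. The melanocyte genes Pmel and Mitf had means of 6.51 and 6.48 CPM in the Krt15-high and 7.93 and 10.2 CPM in the Krt15-low cells. Vim of the fibroblast list had means of 0.132 and 4.96 CPM, with up to 151.1 CPM in a Krt15-low cell. Egfl7 of the endothelial list had means of 0.1 and 1.7 CPM. The part of such reads in the differences between the groups was not tested. Of the defining genes, Sox10, Ptprc, Cd207, Cd3e, Pdgfra and Cdh5 had no read in either group.

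The groups were much alike in library quality. The median depth over genes was 366591 counts in the Krt15-high cells, with a range of 142036 to 1056203, and 398766 counts in the Krt15-low cells, with a range of 141071 to 1093805. Median genes with a read were 7563 and 7678.5, median mitochondrial shares 6.97% and 6.36%, and median spike-in shares 0.645% and 0.603%. Plate 1 held 18 of the Krt15-high and 21 of the Krt15-low cells, and plate 2 held 24 and 21. Reads from other wells reached each library. Per 10000 reads of a source well, an estimated 25.3 turned up in every other well that shared its row letter, on either plate. In every other well of its column on its own plate, the estimate was 12.9. Reads from other wells amounted to a median of 9.56% of counts in the Krt15-high and 8.19% in the Krt15-low cells, so low values of abundant genes can be stray reads in both. The row rate was fitted over both plates together, so stray reads may cross between the plates, which are then not a fully separate repeat.

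A total of 3729 genes other than Krt15 had a mean of at least 50 CPM over the cells under the Krt10 limit. A gene was counted if the ratio of mean CPM, with 1 CPM added to each mean, was at least 1.5 in the same direction on both plates. By this rule 81 genes were higher in Krt15-high cells, 2.17% of those examined, and 62 were lower, 1.66%, together 3.83%. A further 3.35% passed 1.5 on both plates in opposite directions, which is close to the share that passed the same way. Of 440 genes higher on plate 1, 81 were also higher on plate 2 and 60 were lower there. Of 468 genes lower on plate 1, 62 were also lower on plate 2 and 65 were higher. With means of log2(CPM + 1) in place of means of CPM, the split turned, to 2.36% higher and 3.97% lower. Across genes, which are not independent, the ratios of the plates had a Spearman rho of 0.0343. Most of the difference between the groups on plate 1 was thus not seen on plate 2, and the genes below are read with that in mind.

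The counted genes were mainly those of low level. Of the 81 higher and 62 lower genes, 65 and 53 averaged 50 to 100 CPM. A gene near 50 CPM could pass the filter through the group where it was high, so the filter also shaped which genes were ranked. Of the 669 genes that averaged at least 200 CPM, 3 were higher, 3 lower and 4 opposite on the plates, and of the 73 genes at 1000 CPM or more none was counted. Single cells carried many of the ratios: without the highest cell of each gene, 41 of the 81 higher and 28 of the 62 lower genes still passed, and without the highest cell on each plate 22 and 14. The mean of the middle cells lay between those of the other groups for 62 of the 81 higher and 45 of the 62 lower genes.

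**Figure D2:**
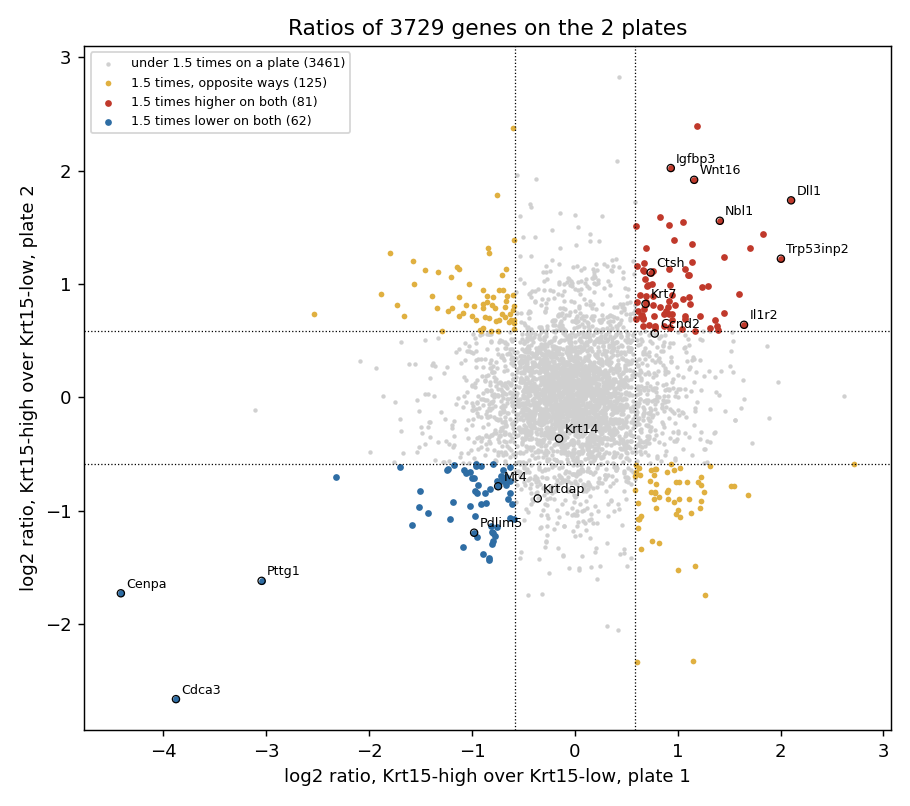
The log2 ratio of mean CPM, Krt15-high over Krt15-low, of each of 3729 genes on plate 1 (x axis) and plate 2 (y axis); dotted lines mark 1.5 times. The 81 genes higher on both plates (red) and the 62 lower on both (blue) are about as many as the 60 and 65 that went opposite ways (yellow).

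Another view asked, over all pairs of 1 Krt15-high and 1 Krt15-low cell, in what share the Krt15-high cell had more of a gene, which a single extreme cell cannot move. It was chosen after the data were seen, and so were the genes named for it. In 11 genes, 0.295% of those examined, the share was at least 65% on both plates, in 14 genes, 0.375%, at most 35%, and 21 genes, 0.563%, passed opposite ways. Of these 11 and 14 genes, those with the highest share were Ctsh, Il1r2, Trp53inp2, Ccnd2 and Krt7, and those with the lowest Krtdap, Pdlim5, Oxa1l, Pdha1 and Rhod.

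Il1r2 encodes a decoy receptor that binds interleukin 1 without passing on its signal. It ran from 32.3 to 2546 CPM in the Krt15-high cells, with a median of 870, and from 11.0 to 2584 CPM in the Krt15-low cells, with a median of 207. The ranges overlapped fully, but 41 of 42 Krt15-high cells and 32 of 42 Krt15-low cells reached 50 CPM, close to the 54.3 and 47.6 CPM of stray reads expected on average in those wells. Its means were 998 ± 634 and 470 ± 616 CPM (SD, n = 42 each), a log2 ratio of 1.08, with 1.64 on plate 1 and 0.64 on plate 2. The Krt15-high cell had more Il1r2 in 77.7% of pairs. Without the highest cell on each plate the log2 ratio was 0.99, and Il1r2 no longer passed 1.5 on both plates. The middle cells lay between, at a mean of 634 CPM. Il1r2 lies on chromosome 1 from 40074079 to 40125231.

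Ctsh, which encodes the lysosomal protease cathepsin H, differed by a like ratio with less spread. Its range was 59.8 to 1048 CPM with a median of 408 in the Krt15-high cells, and 13.8 to 886 CPM with a median of 180 in the Krt15-low cells. The means were 441 ± 246 and 221.1 ± 187.995 CPM, a log2 ratio of 0.99, with 0.74 on plate 1 and 1.10 on plate 2, and with 0.92 once the highest cell on each plate was left out. In 78.1% of pairs the Krt15-high cell had more, the highest share of any gene examined. The middle cells, at 403 CPM, were nearer to the Krt15-high cells.

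Ccnd2 encodes cyclin D2, which drives the start of the cell cycle. It had 457 to 6624 CPM in the Krt15-high cells, with a median of 1846, and 119.1 to 5823 CPM in the Krt15-low cells, with a median of 1024. The means were 2065 ± 1294 and 1303 ± 1061 CPM. The log2 ratio was 0.66, with 0.78 on plate 1 and 0.56 on plate 2, so the second fell short of 1.5 times and the gene is not among the 81. The share of pairs was 72.4%. The related Ccnd1, cyclin D1, went the other way, with means of 175.7 ± 176.7 and 284.3 ± 223.2 CPM and log2 ratios of -0.43 and -0.94 on the plates. It also missed the rule, and of the 4 examined genes of the list of D cyclins and Cdk inhibitors 0 were counted.

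Trp53inp2, a regulator of autophagy, was at 50 CPM or more in 22 Krt15-high and 13 Krt15-low cells. Its medians were 60.9 and 9.65 CPM and its ranges 4.22 to 869 and 0 to 347 CPM. The lower median is near the 8.09 CPM of stray reads expected in the Krt15-low wells. The log2 ratio of means was 1.58, with 2.00 and 1.22 on the plates, and the share of pairs 73.8%. Krt7, a keratin of simple and glandular epithelia, had medians of 75.9 and 14.01 CPM and again 22 and 13 cells at 50 CPM. The highest cell of all was Krt15-low, at 1885 CPM.

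**Figure D3:**
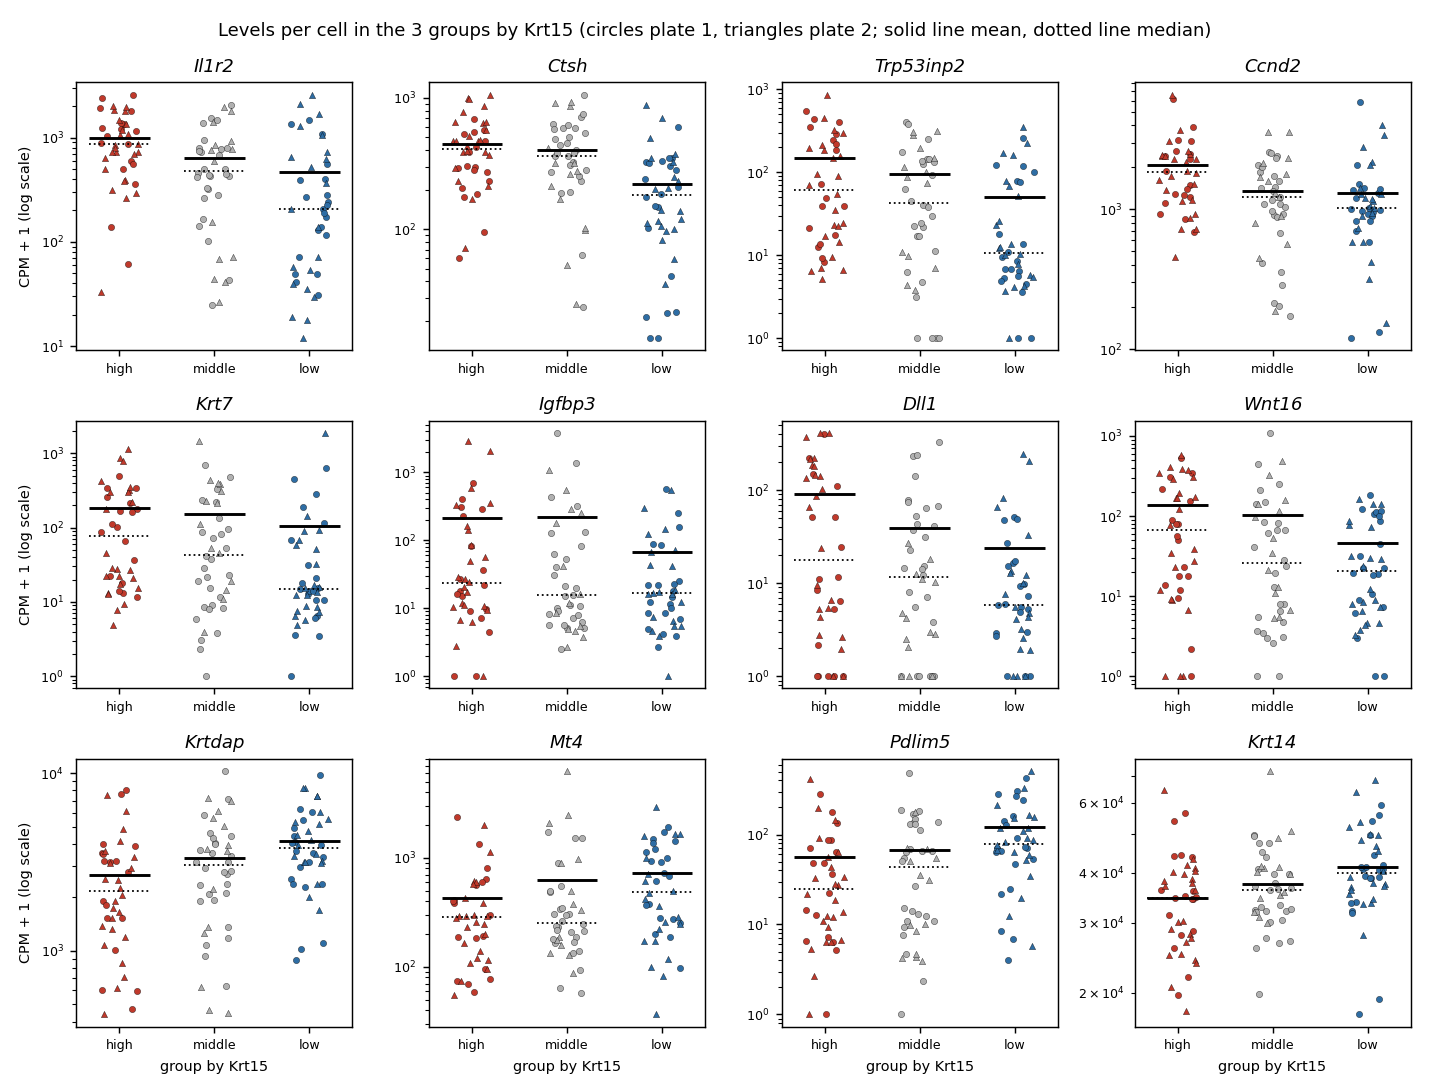
CPM plus 1 of 12 genes on log scales in each cell of the Krt15-high (red), middle (grey) and Krt15-low (blue) groups; circles are plate 1, triangles plate 2, solid lines means and dotted lines medians. The groups overlap in each gene, and the medians of Il1r2, Ctsh and Ccnd2 are highest and those of Krtdap, Pdlim5 and Krt14 lowest in the Krt15-high cells.

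Among the 15 highest of the 81 genes, Dll1, Wnt16, Nbl1, Ephb3 and Flrt1 are known for signals or contacts between cells. They were grouped after their values were seen. Of the Notch, Wnt and BMP lists 1 of 6, 1 of 10 and 0 of 8 examined genes were higher, beside 2.17% of all genes. The Wnt list does not hold Wnt16, and the BMP list does not hold Nbl1. The counted gene of the Wnt list, Lgr6, passed the filter of 50 CPM only through the Krt15-high cells. Dll1, a Notch ligand that marks a part of the basal cells, had the highest ratio by the plate nearer to 1. It was at 50 CPM or more in 18 of the Krt15-high cells and 5 of the Krt15-low cells. The ranges were 0 to 414 CPM and 0 to 244 CPM, with medians of 16.9 and 4.89 CPM. The means were 89.9 ± 124.5 and 23.1 ± 49.7 CPM, a log2 ratio of 1.92, with 2.10 on plate 1 and 1.74 on plate 2, or 1.64 with the highest cell of each plate left out. The middle group had 9 such cells and a mean of 38.1 CPM. With the middle and Krt15-low means under 50 CPM, Dll1 passed the filter only through the Krt15-high cells. Dll1 lies on chromosome 17 from 15367354 to 15376872 on the minus strand.

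Wnt16, a secreted Wnt ligand, reached 50 CPM in 22 Krt15-high and 13 Krt15-low cells. The medians were 65.2 and 19.8 CPM, the highest cells 577 and 180.96 CPM. The log2 ratio was 1.59, with 1.16 and 1.92 on the plates. Nbl1, a secreted antagonist of bone morphogenetic proteins (BMPs), had medians of 90.5 and 22.8 CPM, 23 and 14 cells at 50 CPM, and a log2 ratio of 1.52. Ephb3, a receptor of ephrins, and Flrt1, a membrane adhesion protein, had log2 ratios of 1.24 and 1.12. Flrt1 had more in the Krt15-high cell in 67.7% of pairs, with medians of 97.8 and 8.62 CPM.

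The other genes of the 15 highest have various roles. Tsta3, which makes GDP-fucose, had a log2 ratio of 1.62, Bap1, a nuclear deubiquitinase, 1.51 and Pigs, a subunit of the enzyme that attaches GPI anchors, 1.50. Pnpla8, a phospholipase, had 1.33, Pex16, needed to form peroxisomes, 1.26, Klhdc3 1.10 and Atg5, an autophagy protein, 1.29 on plate 1 and 0.99 on plate 2. Prkci, the polarity kinase atypical protein kinase C iota, had 1.10 and Sgms1, a sphingomyelin synthase, 1.09. The mean levels of the 15 genes ran from 50.4 to 101.6 CPM over the cells under the Krt10 limit, and 14 of the 15 still passed without the highest cell on each plate. They were chosen by the size of their ratios in these same cells, which favours that. Of all 81 higher genes, 22 still passed.

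Basal and adhesion genes differed little. Of the 15 examined genes of the basal keratinocyte list other than Krt15, 0 were counted, and their median log2 ratio was 0.08, beside -0.01 for all genes. Krt5 had means of 23006 ± 4434 and 22974 ± 5554 CPM, a log2 ratio of 0.00. Col17a1, the hemidesmosome collagen, had means of 2728 ± 922 and 2583 ± 862 CPM, Itga6, the integrin of the sort, 832 ± 474 and 759 ± 382 CPM, and Trp63, the transcription factor of stratified epithelia, 304 ± 213 and 287.7 ± 144.7 CPM. Itgb1, the beta 1 integrin chain, was at 382 ± 218 and 428 ± 476 CPM. Of 14 examined genes for integrins, hemidesmosomes and focal adhesions 0 were counted, and of 12 for desmosomes and adherens junctions also 0.

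Mean Krt14 was lower in the Krt15-high cells by less than the spread over cells. Krt14 ran from 17924 to 64644 CPM, with a median of 34678, in the Krt15-high cells and from 17614 to 68338 CPM, with a median of 39880, in the Krt15-low cells. The ranges were nearly the same and the bodies of the distributions were shifted. The means were 34538 ± 9895 and 41492 ± 10334 CPM, with 37560 ± 9120 CPM in the middle cells. The log2 ratio was -0.26, with -0.15 and -0.36 on the plates, far under the limit of 1.5 times. In 30.2% of pairs the Krt15-high cell had more Krt14, 37.6% on plate 1 and 27.2% on plate 2. Reads that fit both Krt14 and Krt15, close paralogs, may have been left uncounted. How such reads were treated is not given in the sources used here, and their part in the Krt14 values was not tested.

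Early differentiation genes had mostly lower means in Krt15-high cells, and most of these differences were under 1.5 times. Without Krt10, which the rule used, 1 of 9 examined genes, Mt4, was counted as lower, beside 1.66% of all genes, and 0 as higher. The median log2 ratio was -0.24, with -0.06 on plate 1 and -0.32 on plate 2. The summed list had a median of 17259 CPM in the Krt15-high and 20236 CPM in the Krt15-low cells, and ranges of 5632 to 38290 and 11642 to 37009 CPM. Krtdap, a secreted protein of differentiating keratinocytes, stood out by its share of pairs, 26.4%, the lowest of any gene. It ran from 438 to 8026 CPM with a median of 2169 in the Krt15-high cells, and from 891 to 9787 CPM with a median of 3800 in the Krt15-low cells. The means were 2667 ± 1927 and 4171 ± 2042 CPM, with 3330 CPM in the middle cells. Its log2 ratio was -0.65, but -0.36 on plate 1 and -0.89 on plate 2, so it missed the limit on plate 1.

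Mt4, a metallothionein of stratified epithelia, had medians of 287 and 487 CPM. It ran from 54.6 to 2388 CPM in the Krt15-high and from 35.7 to 2925 CPM in the Krt15-low cells. The means were 423 ± 490 and 732 ± 647 CPM, a log2 ratio of -0.79, with -0.75 and -0.78 on the plates. Without its single highest cell Mt4 no longer passed. The stray reads expected were 143.7 and 135.6 CPM, a sizeable part of the lower cells' values. Lgals3, a galectin, had means of 1972 ± 693 and 2382 ± 725 CPM and a share of pairs of 33.2%. Of the 9 examined early differentiation genes, 7 had a log2 ratio below 0, and 5 of them on both plates, beside 25.6% of all genes below 0 on both plates. Calm4, a relative of calmodulin, had means of 1906 and 2244 CPM and Krt2, a late suprabasal keratin, 1044 and 1367 CPM, both lower on each plate by less than 1.5 times. Sbsn had a log2 ratio of -0.39 and Dsg1a, a desmosomal cadherin, -0.13. Ly6d, a surface protein of stratified epithelia, had means of 8990 ± 4062 and 9378 ± 3283 CPM. Only Dmkn, secreted by suprabasal cells, and Krt1 had ratios above 0. The means were 2326 ± 1106 and 2122 ± 774 CPM for Dmkn, and 842 ± 805 and 703 ± 706 CPM for Krt1. Of the 14 genes of the late differentiation list, 0 had enough reads to be examined. That list summed to a median of 90.3 CPM in the Krt15-high and 56.9 CPM in the Krt15-low cells, opposite to the early list. Its summed means were 77.2 and 94.2 CPM on plate 1 and 177.5 and 94.1 CPM on plate 2, so the plates went opposite ways.

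**Figure D4:**
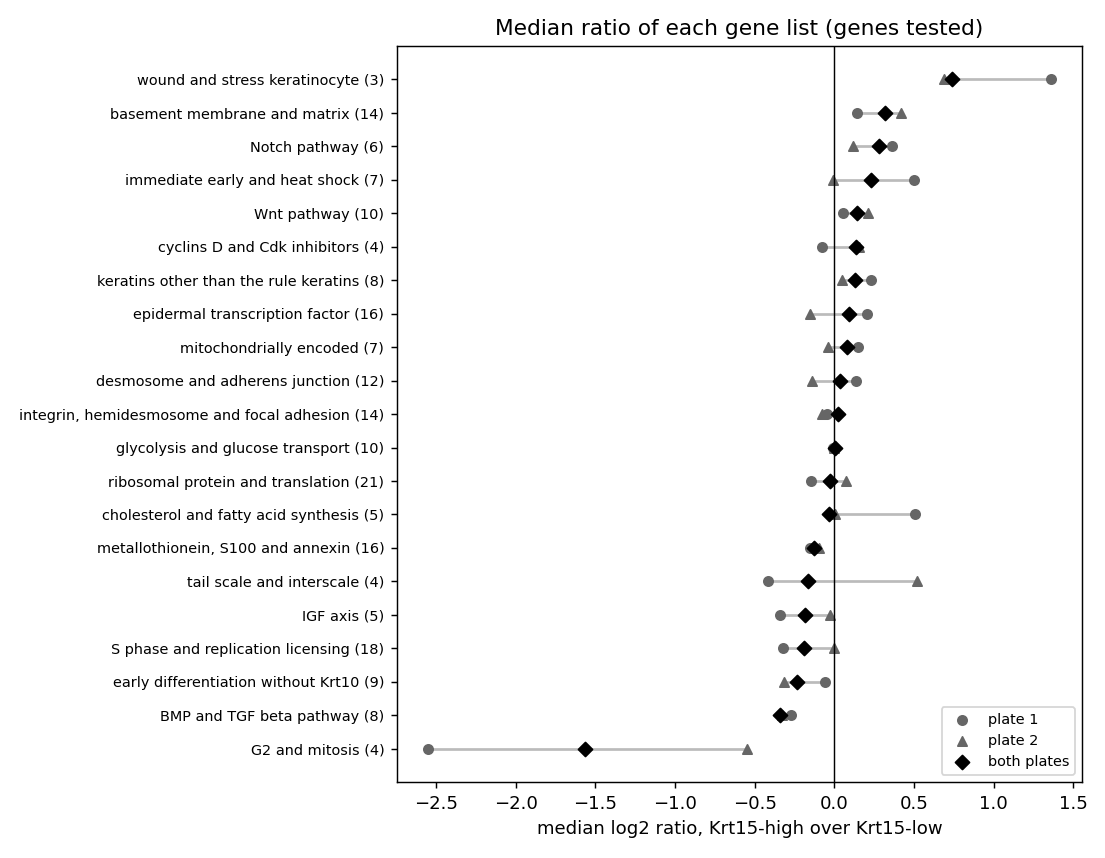
Median log2 ratio of mean CPM, Krt15-high over Krt15-low, of the gene lists with at least 3 examined genes (number in brackets); circles are plate 1, triangles plate 2 and diamonds both plates. Most lists lie near 0, and the G2 and mitosis list stands lowest at -1.56 from 4 examined genes. Of these, Cenpa passed the filter of 50 CPM only through the middle and Krt15-low cells. All 24 genes of that list summed to medians of 211 CPM in the Krt15-high and 254 CPM in the Krt15-low cells.

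The lists of follicle and matrix genes held the counted genes Krt17, Lgr6, Igfbp3 and Thbs1. Of 12 upper hair follicle genes, 6 were examined and 2 of them were higher, Krt17 and Lgr6, beside 2.17% of all genes, with a median log2 ratio of 0.38. The summed list ran from 91.5 to 8467 CPM in the Krt15-high cells, with a median of 536, and from 24.03 to 3989 CPM in the Krt15-low cells, with a median of 341, and the part of follicle cells in these values was not tested. Lgr6, an R-spondin receptor of stem cells above the bulge, was at 50 CPM or more in 12 Krt15-high and 9 Krt15-low cells. Its medians were 7.58 and 4.26 CPM and its log2 ratio 0.95. The means were 84.4 CPM in the Krt15-high, 26.2 CPM in the middle and 43.2 CPM in the Krt15-low cells. Lgr6 thus passed the filter of 50 CPM only through the Krt15-high cells. Krt17, a keratin of follicles and wounds, had a mean of 270 ± 1036 CPM in the Krt15-high and 129.6 ± 417.7 CPM in the Krt15-low cells. A single Krt15-high cell had 6776 CPM, and without it the log2 ratio went from 1.05 to -0.22. The medians of Krt17 were 59.4 and 28.1 CPM, and 25 and 15 cells reached 50 CPM. Neither Krt17 nor Lgr6 still passed without its highest cell. Of the bulge list, the matrix gene Postn alone had enough reads, with means of 235 and 152.3 CPM, and was not counted.

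Of 14 examined genes of basement membrane and matrix, 2 were higher and 0 lower, beside 2.17% higher of all genes, and the median log2 ratio was 0.32. In 9 of the 14 the ratio was above 0 on both plates, beside 24.5% of all genes. Igfbp3, which binds insulin-like growth factors, had 15 Krt15-high and 11 Krt15-low cells at 50 CPM, medians of 22.3 and 15.7 CPM, and highest cells of 2866 and 560 CPM. Its means were 215 ± 541 and 66.2 ± 128.3 CPM, a log2 ratio of 1.68, which was 1.03 without the highest cell on each plate. The middle cells had a mean of 216 CPM, as high as the Krt15-high cells. Thbs1, the matrix glycoprotein thrombospondin 1, had means of 76.95 ± 186.5 and 35.95 ± 58.1 CPM, but medians of 7.07 and 7.71 CPM, and its ratio fell under the limit without its highest cell. Lamb3, a laminin chain, and Sparc, a matrix protein, had log2 ratios of 0.12 and 0.01.

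Pathway lists held few counted genes. Of 6 examined Notch genes 1 was higher, Dll1, while the receptor Notch1 had log2 ratios of 1.17 and -0.09 on the plates and the ligand Jag2 -0.14 over both. Of 10 examined genes of the Wnt list, which does not hold Wnt16, 1 was higher, Lgr6. That gene passed the filter of 50 CPM only through the Krt15-high cells. The ligands Wnt4, Wnt10a and Wnt3 of this list had log2 ratios of 0.33, 0.43 and -0.22. Of 8 examined genes of the BMP and TGF beta list, which does not hold Nbl1, 0 were counted, with a median of -0.34. The BMP targets Id1, Id2 and Id3 had log2 ratios of -0.40, -0.78 and -0.31, each lower on both plates by unequal amounts, such as -0.29 and -1.32 for Id2. Sox6, a transcription factor of the tail scale and interscale list, had medians of 29.7 and 16.1 CPM and a log2 ratio of 0.92, and did not pass without its highest cell. Of 16 epidermal transcription factors, 21 genes of ribosomal proteins and translation (with Eef1a1, Eef2 and Tpt1), 10 glycolysis genes and 7 mitochondrially encoded genes examined, 0 were counted in either direction.

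The 3 lowest ratios were those of Cdca3, Cenpa and Pttg1, which are known for roles in mitosis. Cdca3 is an adaptor for the degradation of a mitotic inhibitor, and Cenpa is the centromeric histone variant. Pttg1 is securin, which until anaphase inhibits the protease that separates sister chromatids. These 3 genes led the 62 lower genes. Many mitotic genes carry the cell cycle homology region in their promoters, a motif with the core TTTGAA through which they are shut off outside G2 and mitosis. The core was searched on both strands, as TTTGAA or its reverse complement TTCAAA, in the RefSeq promoters of GRCm38.p6, 250 bases before to 50 after each start site. The matches of Cdca3 and Cenpa are shown because these genes had the lowest ratios, and those of Top2a because it is the other counted gene of the G2 and mitosis list. They are stretches of 30 bases on the gene's own strand with the motif in capitals.
Cdca3: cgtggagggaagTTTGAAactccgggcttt
Cenpa: ggcgggtgatttTTTGAActgctggcgacc
Top2a: ctattggtccatTTTGAAgattctcccgcc
Top2a, nearer to the start: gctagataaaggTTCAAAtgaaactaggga
The stretches lie at chr6:124830194-124830223 on the plus strand, chr5:30666890-30666919 on the plus strand, and chr11:99024351-99024380 and chr11:99024195-99024224 on the minus strand. The promoter window of Pttg1 held no match. Of all 32851 promoters of this length, 17.9% held the core, so a match is a description of these letters and not a site.

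The low ratios of these genes came from a few Krt15-low cells. Cdca3 ran from 0 to 76.5 CPM in the Krt15-high cells and from 0 to 1626 CPM in the Krt15-low cells, while the medians were 4.97 and 4.70 CPM, close to the stray reads expected, 4.98 and 3.99 CPM. Only 2 Krt15-high and 8 Krt15-low cells reached 50 CPM. The means were 9.93 ± 15.5 and 114.4 ± 324.6 CPM, a log2 ratio of -3.40, and the middle group had 7 cells at 50 CPM and a mean of 66.6 CPM. Cdca3 thus passed the filter of 50 CPM only through the middle and Krt15-low cells.

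Cenpa had 1 and 7 cells at 50 CPM and a log2 ratio of -2.88, and Pttg1 had 3 and 12 such cells and -2.44. The highest Krt15-low cells had 995 CPM of Cenpa and 1302 CPM of Pttg1, against 188.2 and 139.5 CPM in the highest Krt15-high cells. Both genes had higher means in the middle cells, 111.4 and 186.7 CPM, than in the Krt15-low cells, at 78.9 and 84.2 CPM, so their levels did not follow Krt15 in order. Like Cdca3, they passed the filter of 50 CPM only through these groups. Top2a, a DNA topoisomerase of dividing cells, had 10 and 13 cells at 50 CPM and log2 ratios of -1.70 and -0.62 on the plates. Mki67, the proliferation marker Ki-67, had 4 and 11 cells at 50 CPM and means of 44.997 ± 131.6 and 116.2 ± 229.6 CPM, and missed the rule.

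The G2 and mitosis list of 24 genes does not hold Cdca3 and Pttg1. Of its 4 examined genes 2 were lower, Cenpa and Top2a, beside 1.66% of all genes. How many cells stood out for the list depended on the measure. The list summed to 1000 CPM or more in 2 Krt15-high, 7 middle and 8 Krt15-low cells. Of these, 1 Krt15-high and 5 Krt15-low cells were on plate 1, and 1 and 3 on plate 2. The summed medians were 211, 207 and 254 CPM in the same order, and the means 363, 1118 and 1021 CPM. By a second measure, at least 25% of the list at 10 CPM, 16 of 42 Krt15-high and 16 of 42 Krt15-low cells passed, 38.1% in both (exact Clopper-Pearson 95% interval 23.6% to 54.4%, counting error only). On plate 1, 5 of 18 Krt15-high and 11 of 21 Krt15-low cells passed, and on plate 2, 11 of 24 and 5 of 21, so the plates went opposite ways. In cells of low depth 10 CPM is few reads, and stray reads alone can reach it. The part of depth and stray reads in this second measure was not tested. In 12 of the Krt15-high and 6 of the Krt15-low cells the share lay near the limit, between 20% and 30%.

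**Figure D5:**
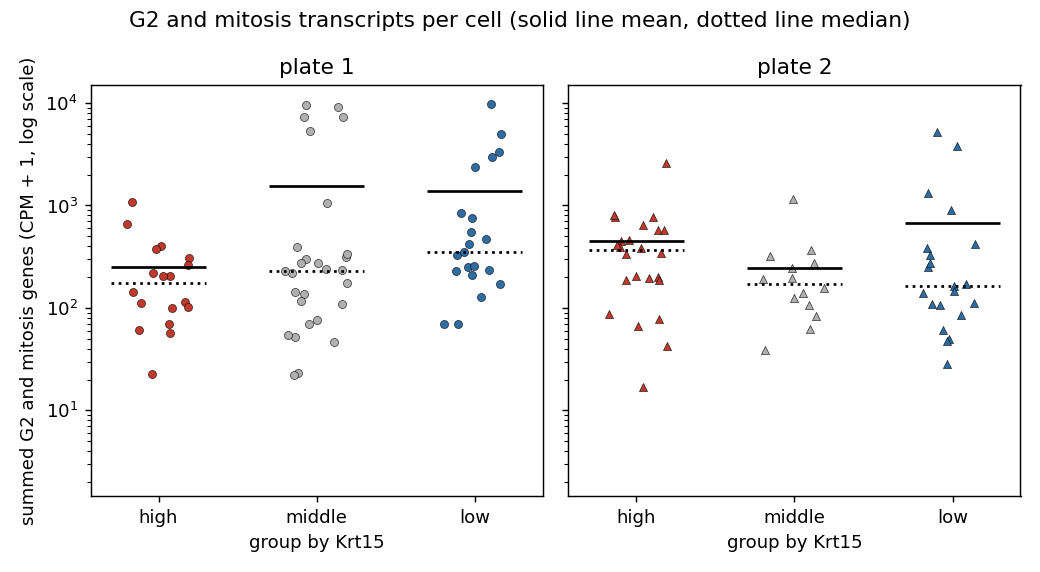
Summed CPM plus 1 of the 24 genes of the G2 and mitosis list in each cell, on a log scale, by Krt15 group and plate; solid lines are means and dotted lines medians. The cells above 1000 CPM are 2 in the Krt15-high, 7 in the middle and 8 in the Krt15-low group, while the bulk of the cells overlaps.

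Genes of DNA replication differed less. Of 18 examined S phase genes 1 was lower, Rrm1, beside 1.66% of all genes. Rrm1, the large subunit of ribonucleotide reductase, had medians of 24.6 and 82.02 CPM and a log2 ratio of -0.75. It no longer passed without its highest cell. The summed list had medians of 1036 and 1067 CPM in the Krt15-high and Krt15-low cells, and the median log2 ratio of its genes was -0.19, with -0.32 on plate 1 and 0.00 on plate 2. Among the 15 lowest genes, Parp1, a sensor of DNA breaks, had a log2 ratio of -1.30, Tcf19 -1.11 and Chaf1b, a subunit of a histone chaperone of replication, -1.05.

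Of the remaining lowest genes, Oxa1l, which inserts proteins into the inner mitochondrial membrane, was at 50 CPM or more in 11 Krt15-high and 26 Krt15-low cells, with ranges of 0 to 195.6 and 0 to 304 CPM and medians of 13.1 and 90.3 CPM. Its log2 ratio was -1.26, with -1.43 and -1.02 on the plates. Pdha1, a subunit of pyruvate dehydrogenase, was at 50 CPM in 17 and 30 cells, with medians of 25.1 and 84.7 CPM and a log2 ratio of -1.01. Aifm1, a flavoprotein of the space between the mitochondrial membranes, had a log2 ratio of -1.15. No list of nuclear genes for mitochondrial proteins was examined.

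Pdlim5, which links actin to signalling proteins, was at 50 CPM or more in 13 Krt15-high and 32 Krt15-low cells. It ran from 0 to 411 CPM with a median of 23.97 in the first, and from 3.07 to 508 CPM with a median of 78.4 in the second. The log2 ratio was -1.10, with -0.98 and -1.19 on the plates, and the Krt15-high cell had more in 26.5% of pairs. Rhod, a small GTPase of endosomes and actin, had a log2 ratio of -1.16 and Exph5, a protein of vesicle transport in keratinocytes, -1.20. Cept1, which makes phospholipids, had -1.11, Eif2b3, a translation factor subunit, -1.19 and -0.92 on the plates, and Utp20, needed for ribosome assembly, -0.92. Of the 15 lowest genes, 11 still passed without the highest cell on each plate, beside 14 of all 62 lower genes. The 15 were likewise chosen by the size of their ratios.

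The middle cells and the cells with Krt10 at 1500 CPM or more took no part in the comparison, so the relation of the counted genes with Krt15 within them is a separate description. In the 42 middle cells, 44 of the 81 higher genes (54.3%) had a Spearman rho with Krt15 above 0, beside 47.4% of all genes, and 40 of the 62 lower genes (64.5%) a rho below 0, beside 52.6%. In the 62 cells with more Krt10, 61.7% of the higher genes had a rho above 0, beside 66.99% of all genes, and 37.1% of the lower genes a rho below 0, beside 33.01%. The shares were near those of all genes, most of all in the second set. Stray reads were fitted as passing between wells of the same row letter, also across the plates, so neither the cells nor the plates are fully separate.

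Of the 15 highest genes, 9 had a rho above 0 in the cells with more Krt10, beside 66.99% of all genes. Of the 15 lowest, 6 had a rho below 0, beside 33.01% of all genes. Both counts are near these shares. The next genes were picked after their values were seen as examples that kept their direction, and Ccnd2 and Krtdap among them were not counted as higher or lower. Across those 62 cells, Krt15 and Il1r2 had a rho of 0.45, with 0.28 and 0.58 on the plates, Ccnd2 0.58, with 0.57 and 0.60, and Flrt1 0.51, with 0.49 and 0.47. Krtdap had -0.71, with -0.69 and -0.71 on the plates, and Mt4 -0.55. Krt10 itself ran from 1535 to 45289 CPM in these cells, and Krt15 had a rho of 0.76 with Krt5 and 0.69 with Krt14 there. Krt14 thus went with Krt15 in the cells with more Krt10, while in the undifferentiated cells its mean was lower in the group with more Krt15. Ctsh had a rho of -0.27 in the cells with more Krt10, opposite to its direction between the Krt15 groups, and in the middle cells 0.31 on plate 1 and -0.40 on plate 2. Dll1 and Trp53inp2 had 0.07 and 0.03 in the cells with more Krt10.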

How the data were processed

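Raw counts of reads per gene, with no normalization by the authors, were deposited for 94 single cells on each of 2 plates. STAR 2.5.2b, HTSeq 0.6.0, cutadapt 1.13 and the genome GRCm38 appear in the submitters' processing notes. How strand was used is not stated in these sources, so overlapping and antisense genes cannot be told apart. Counts without molecular identifiers include amplified copies. There were 49585 rows of genes and 92 of spike-ins. Symbols matched 49326 rows, and positions come from GENCODE M21. Counts were divided by the total over genes, without spike-ins, to give CPM. All cells were kept, with 79868 to 1093805 counts, and no doublet caller was run, since 1 cell was sorted per well.

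Genes with a mean of at least 50 CPM over the cells under the Krt10 limit were examined with a ratio limit of 1.5 on each plate and a pseudocount of 1 CPM. No test was run, because no animal is named. No 2 cells under the Krt10 limit held identical counts. Stray reads were fitted on 57 genes from row and column. The scripts were tested on simulated data. Named genes were the 15 highest and 15 lowest by the plate nearer to 1, counted members and up to 5 most abundant genes of each of 34 lists, and fixed markers; Il1r2, Ctsh, Lgals3 and Krt7 were chosen after their values were seen. Members and lists were chosen with earlier results of these data known. Python 3.11.15, pandas 2.3.3, scipy 1.17.1 and, for the TMM alternative, edgeR 4.0.16 were used. Alternatives changed the limits, filters, scaling, cells and plates.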

Additional observations from a re-analysis of the deposited data

How the results depend on the processing

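Of the genes examined, 2.17% were higher and 1.66% lower as reported, and these shares moved by over 1.5 times under several settings. They were 3.27% and 3.06% (236 genes in all) with the highest and lowest 25% of cells by Krt15, 5.26% and 5.13% with genes from 10 CPM, 0.448% both ways with genes from 200 CPM, and 0.375% and 0.188% with a limit of 2 times. The lower share alone moved to 2.52% with a Krt10 limit of 1000 CPM, 3.97% with means of log2(CPM + 1) and 3.61% without cells at 25% or more of the G2 and mitosis list. Plate 2 alone gave 12.58% and 12.21%, and plate 1 alone 10.46% and 11.04%, where no other plate was required to agree. Settings added after the data were seen gave 1.10% and 0.751% without each gene's highest cell, 0.590% and 0.375% without its highest cell on each plate, and 0.295% and 0.375% by share of pairs. With a Krt10 limit of 3000 CPM, ranking within plates, keratins left out of the total, summed counts, median ratios, TMM, a pseudocount of 10 CPM, a depth of at least 150000 counts, the cells highest for Krt1, Krtdap or Krt2 left out, or stray reads subtracted, both stayed within 1.5 times. The genes changed all the same: these settings kept 50 to 78 of the 81 higher and 30 to 62 of the 62 lower genes, with 54 and 30 for summed counts. The cause of these moves was not tested. Of 855 values of 45 named genes past the limit over 19 settings, 235 moved by more than the SD of the plates, 619 did not and 1 reversed: Thbs1 had a log2 ratio of -0.17 without the cells at 25% of the G2 and mitosis list. Of the 45 genes, 11 passed in every setting that examined them. At a median of 369991 counts per cell, 50 CPM is few reads, and lower genes cannot be compared. No paired analysis was possible because the cells form 1 group and replicate numbers pair none of them.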
